A study of Mus musculus with 14 samples.

Results

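Immediate early transcription factors are nuclear proteins whose genes are switched on within minutes of a signal, with no need for new protein synthesis. The 10 genes described here were chosen by symbol: Egr1, Egr2 and Egr3, the orphan nuclear receptor gene Nr4a1, Ier2, and the AP-1 genes Fos, Fosb, Jun, Junb and Jund. All 10 had a row in the deposited table of unique molecular identifier (UMI) counts, which lists 9969 genes. The libraries came from germinal centre (GC) B cells of C57BL/6 mice that were chimeras, with cells 50% wild type (WT) and 50% SykY317F, so cells of both genotypes developed in chimeric hosts. Syk is the kinase that acts directly behind the antigen receptor, and the name SykY317F marks an exchange of a tyrosine for phenylalanine. Popliteal lymph nodes were taken on day 14 after NP-KLH, a hapten coupled to a carrier protein, had been given to every mouse. Dark zone (DZ) and light zone (LZ) fractions were sorted, and by the genotype labels there were 4 libraries each of WT DZ and WT LZ and 3 each of SykY317F DZ and SykY317F LZ. Whether the libraries within a group stem from different mice, or from pooled mice, is not in the labels, so p-values measure the spread between libraries, which may be partly technical.

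In a resting cell most of these genes, Jund excepted, are nearly silent but poised: serum response factor with its ternary complex partners, and the cyclic AMP response element binding protein CREB, already sit at many of their promoters. Phosphorylation through the ERK, JNK and p38 kinases, or calcium entry, then starts transcription, and the short-lived mRNA is soon lost again. In B cells the antigen receptor and CD40 feed both routes, and Nr4a1 is widely used as a reporter of recent antigen receptor signalling. Light zone B cells contact antigen and T follicular helper cells, whereas dark zone B cells mainly divide and mutate their antibody genes.

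The 14 libraries held 149641 to 1767898 UMIs. The SykY317F LZ libraries and SykY317F DZ replicate 4 were the shallowest and gave 9.37 to 15.8 UMIs per 100 reads, against 33.5 to 53.2 in the other libraries. Levels are given as CPM, UMIs per 1000000 UMIs of a TMM-scaled library size, and 3 UMIs, the limit that a count of 0 allows, correspond to 1.73 to 18.8 CPM over the libraries. The limit covers counting error only. Of 12 GC B cell markers 11 were in the table and above 0 in every group. A list of 8 light zone markers summed to 1536 to 2381 CPM in DZ libraries and 2564 to 3358 CPM in LZ libraries, and 8 dark zone markers to 1335 to 2463 CPM and 903 to 1359 CPM. The zones did not overlap in the light zone sum and overlapped in the dark zone sum through SykY317F DZ replicate 2 and WT LZ replicate 3. SykY317F DZ replicate 2 had the highest light zone sum (2381 CPM) and the lowest dark zone sum (1335 CPM) of the DZ libraries. Counts of transcript ends cannot show the Syk substitution, so the genotype labels were not checked.

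In WT cells all 9 early factors that passed the filter on low counts had a higher fitted level in LZ than in DZ, with a median log2 fold change of 1.44 against -0.02 over all 7999 genes tested. None passed the test: edgeR's quasi-likelihood test called 0 of 9 at an adjusted p of 0.05, where it called 0.188% of all genes. At an unadjusted p under 0.05 there were 3 (Egr2, Ier2 and Junb), against 8.48% of all genes. In SykY317F cells the same contrast put 1 of 9 on the higher side, with a median of -0.25, and called 0 of 9 (0.0375% of all genes), with 0 of 9 at an unadjusted p under 0.05 (10.3% of all genes). Between genotypes, 9 of 9 had a higher fitted level in SykY317F DZ than in WT DZ (median 1.71), of which 3 (Egr3, Ier2 and Fos) had an unadjusted p under 0.05 against 3.81% of all genes. The marker sums of these DZ groups differed too. All 3 SykY317F DZ libraries lay below all 4 WT DZ libraries in the dark zone sum (1335 to 1954 against 2127 to 2463 CPM), and above them in the sums of naive and memory B cell markers (1097 to 1625 against 547 to 968 CPM) and of T cell markers (191 to 296 against 93.2 to 188 CPM). Their part in the levels of the early factors was not tested. In LZ 3 of 9 were higher in SykY317F than in WT (median -0.63) and 0 had an unadjusted p under 0.05 (9.81% of all genes). Both genotype contrasts and the test of whether the zone effect differed between genotypes called 0 of 9 members and 0% of all genes by edgeR's test. That difference was below 0 for 9 of 9 members (median -1.69), 1 of which (Egr3) had an unadjusted p under 0.05 (4.8% of all genes). Averaged over both genotypes, 7 of 9 were on the higher side in LZ (median 0.27), 0 of 9 were called, where 1.43% of all genes were, and 0 had an unadjusted p under 0.05 (14.3% of all genes). DESeq2's Wald test also called 0 of 9 in each contrast, and limma voom called Egr2 in the WT zone contrast and 0 elsewhere. In that WT zone contrast DESeq2's test called 97 genes in all and limma voom 295. Between genotypes in LZ these counts were 43 and 0. The contrasts share libraries, so their values are not independent of each other.

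Of the 10 genes, 0 in the authors' deposited table had an adjusted p under 0.05 in any of 4 comparisons. Of all 9969 genes there, 78 did between the WT zones, 22 between the SykY317F zones, 18 between the DZ groups and 25 between the LZ groups. The lowest values of the 10 were 0.0809 for Ier2 between the DZ groups and 0.119 for Egr2 between the WT zones. Removing SykY317F DZ replicate 2 moved the SykY317F zone contrast from 1 of 9 to 8 of 9 on the higher side, and the DZ genotype contrast from 9 of 9 to 4 of 9. That library is in neither group of the WT zone contrast, where leaving out WT DZ replicate 3 or 4 left 8 of 9 on the higher side.

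**Figure D1:**
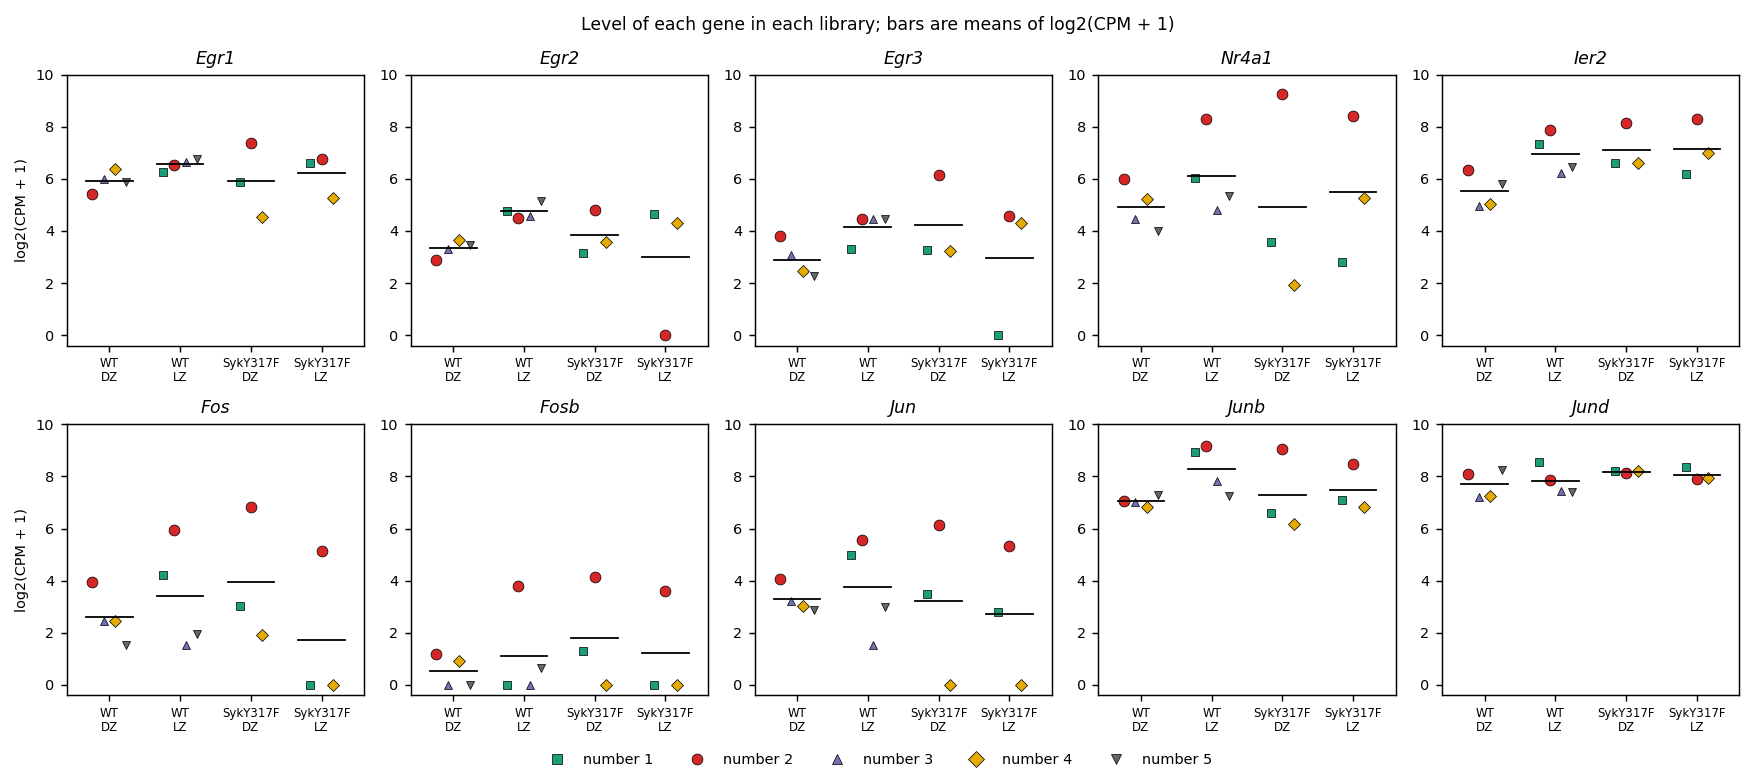
Level of the 10 early factors as log2(CPM + 1) in each of 14 libraries, by genotype and zone, with the symbol showing the replicate number in the label and the bar the mean of the points. The red circles, libraries numbered 2, lie at the top of every group for Nr4a1, Ier2, Fos, Fosb and Jun, and in no group for Jund. For Fosb this rests on 1 UMI in WT DZ, where replicate 4 also held 1, and on 2 UMIs in SykY317F LZ.

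Egr1, Egr2 and Egr3 encode zinc finger factors of the early growth response family, which bind the GC-rich sequence GCGGGGGCG. Egr2 and Egr3 restrain lymphocyte activation in other settings, and Egr1 is a standard readout of ERK signalling. On GRCm38 the gene Egr1 lies at chr18:34859823-34864984, Egr2 at chr10:67535475-67542188 and Egr3 at chr14:70077203-70082614, all on the plus strand.

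Egr2 was the member whose zones separated most cleanly in WT cells. It measured 6.47, 8.95, 11.6 and 10.1 CPM in WT DZ replicates 2, 3, 4 and 5, and 26.3, 21.8, 23.0 and 34.6 CPM in WT LZ replicates 1, 2, 3 and 5. Every LZ library was above every DZ library, a pattern shown by 2.89% of all tested genes and by 1 of 9 members, Egr2 alone. The fitted log2 fold change was 1.50 ± 0.47 (SE), with a 95% interval of 0.52 to 2.48 and an adjusted p of 0.254 by edgeR's test. In SykY317F cells Egr2 measured 7.99, 26.9 and 11.1 CPM in DZ replicates 1, 2 and 4. The LZ libraries read 23.9, 0 and 18.8 CPM. The groups overlapped, because replicate 2 was the highest DZ library and the lowest LZ library. The 0 stands for 0 UMIs in SykY317F LZ replicate 2, where up to 16.9 CPM would fit a count of 0. The SykY317F zone effect was -0.05 ± 0.66 and the difference between genotypes -1.54 ± 0.80 (95% interval -3.21 to 0.12, edgeR adjusted p = 0.999). Without SykY317F DZ replicate 2 that difference was -0.73 ± 0.86. From high to low, the group means (SD) were 26.4 ± 5.80 CPM in WT LZ (n = 4), then in SykY317F 15.3 ± 10.2 CPM for DZ and 14.2 ± 12.6 CPM for LZ (n = 3 each), and 9.26 ± 2.15 CPM in WT DZ (n = 4). Neighbours in this order overlapped in their libraries, and WT LZ and WT DZ, its ends, did not.

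A start of Egr2 is shown because it carries the recognition sequence of serum response factor, the CArG box, beside matches to TGACG, the core of the CREB element. Here and for the genes that follow, sequences were taken from RefSeq promoter windows (GRCm38.p6) and are written 5′ to 3′ on the gene's strand. Capitals mark the motif matches, and CGTCA is TGACG read on the opposite strand. The stretch covers chr10:67537749-67537868 on the plus strand, the 120 bases before the start of transcription.
Egr2: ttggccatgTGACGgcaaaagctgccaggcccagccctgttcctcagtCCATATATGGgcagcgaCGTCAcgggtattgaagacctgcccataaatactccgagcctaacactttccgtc

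Egr1 was present in every library. It measured 41.4, 62.6, 81.9 and 57.1 CPM in WT DZ (replicates 2, 3, 4 and 5) and 75.7, 91.9, 99.8 and 108 CPM in WT LZ (replicates 1, 2, 3 and 5). The WT zones overlapped through WT DZ replicate 4 and WT LZ replicate 1, and the log2 fold change was 0.62 ± 0.40. In SykY317F it measured 58.1, 165 and 22.1 CPM in DZ and 95.5, 107 and 37.6 CPM in LZ (replicates 1, 2 and 4), so both extremes of the gene lay in SykY317F DZ.

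Egr3 was low in most libraries. It measured 12.9, 7.46, 4.45 and 3.77 CPM in WT DZ and 8.78, 20.8, 21.1 and 20.8 CPM in WT LZ, a log2 fold change of 1.38 ± 0.71. In WT LZ 3 libraries nearly coincided and replicate 1 was lower. SykY317F DZ measured 8.71, 69.3 and 8.29 CPM, and SykY317F LZ 0, 22.6 and 18.8 CPM. Replicate 2, at 103 UMIs, was 7.95 times the next SykY317F DZ library. The DZ genotype contrast of 2.16 ± 0.73 (unadjusted p = 0.00839, adjusted p = 0.841 by edgeR) became 0.32 ± 0.76 without that library. The difference of zone effects moved likewise, from -2.79 ± 1.20 (unadjusted p = 0.0328, edgeR adjusted p = 0.999) to -0.94 ± 1.09.

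Nr4a1, which encodes the orphan nuclear receptor Nur77, a brake on B cells that see antigen without T cell help, had the widest range of the 10 in CPM, from 2.76 to 617. The gene lies at chr15:101254269-101274795 on the plus strand. It measured 63.4, 20.9, 36.5 and 15.1 CPM in WT DZ (replicates 2, 3, 4 and 5) and 64.7, 313, 26.9 and 39.3 CPM in WT LZ (replicates 1, 2, 3 and 5). SykY317F DZ measured 10.9, 617 and 2.76 CPM and SykY317F LZ 5.97, 339 and 37.6 CPM in replicates 1, 2 and 4. In all 4 groups the library numbered 2 was the highest, by 1.74 times over the next library in WT DZ, 4.84 times in WT LZ, 56.6 times in SykY317F DZ and 9.0 times in SykY317F LZ. In SykY317F DZ the 3 libraries held 15, 917 and 1 UMIs of it, and the 917 UMIs rested on 2290 reads, or 40.0 UMIs per 100 reads, near the 43.0 of that whole library. The WT zone contrast was 1.78 ± 1.44 and the DZ genotype contrast 2.74 ± 1.51, neither past the test (edgeR adjusted p = 0.792 and 1). Without WT LZ replicate 2 the WT zone contrast was 0.44 ± 1.49. Without SykY317F DZ replicate 2 the genotype contrast turned to -1.93 ± 1.68 and the SykY317F zone contrast from -0.86 ± 1.69 to 3.80 ± 1.79.

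The Nr4a1 window is printed because it holds the most TGACG matches of the 7 members with a window, 4, all on the opposite strand, and also GCGGGGGCG, on the opposite strand as CGCCCCCGC. The stretch is chr15:101266606-101266845, plus strand, the 240 bases before the RefSeq start, which lies inside the annotated bounds of the gene.
Nr4a1: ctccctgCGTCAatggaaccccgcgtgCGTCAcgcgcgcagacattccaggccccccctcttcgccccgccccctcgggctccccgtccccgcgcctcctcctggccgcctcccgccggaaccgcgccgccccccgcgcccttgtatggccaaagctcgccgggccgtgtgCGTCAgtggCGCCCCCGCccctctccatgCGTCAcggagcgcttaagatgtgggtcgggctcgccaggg

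Ier2 encodes a small protein of the immediate early response that enters the nucleus and takes part in transcription, and lies at chr8:84661331-84662852 on the minus strand. It measured 80.2, 29.8, 32.0 and 54.6 CPM in WT DZ and 161, 232, 72.9 and 87.2 CPM in WT LZ, and the zones overlapped only through WT DZ replicate 2 and WT LZ replicate 3. The log2 fold change was 1.52 ± 0.53 (95% interval 0.37 to 2.66, edgeR adjusted p = 0.391). SykY317F DZ measured 96.6, 280 and 96.8 CPM and SykY317F LZ 71.6, 316 and 125 CPM. All 3 SykY317F DZ libraries were above all 4 WT DZ libraries, as for 3.56% of all tested genes and 1 of 9 members. The DZ genotype contrast was 1.73 ± 0.56 (95% interval 0.52 to 2.94, edgeR adjusted p = 0.841), and 0.99 ± 0.56 without SykY317F DZ replicate 2.

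The AP-1 factors act as dimers. Fos and FosB cannot pair with themselves and join a Jun protein, and the pairs bind the sequence TGANTCA. Fos lies at chr12:85473890-85477273 (plus strand), Fosb at chr7:19302696-19310051 (minus), Jun at chr4:95049034-95052222 (minus), Junb at chr8:84974484-84978718 (minus) and Jund at chr8:70698949-70700616 (plus). Jun overlaps the antisense gene Junos, Jund the antisense gene Gm11175, and Junb the gene Prdx2 on the other strand. Whether counting used strand is not given in the sources used here, so the counts of these 3 genes are uncertain to that extent.

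Fos measured 14.2, 4.47, 4.45 and 1.88 CPM in WT DZ and 17.6, 60.3, 1.92 and 2.89 CPM in WT LZ. In SykY317F it measured 7.26, 113 and 2.76 CPM in DZ and 0, 33.9 and 0 CPM in LZ. The library numbered 2 led every group, with 11, 61, 168 and 6 UMIs, and the remaining SykY317F LZ libraries held 0 UMIs where 3 UMIs would be 8.95 and 18.8 CPM. The WT zone contrast was 1.87 ± 1.31, and 0.39 ± 1.34 without WT LZ replicate 2. The DZ genotype contrast was 2.94 ± 1.33 (unadjusted p = 0.0482, edgeR adjusted p = 1) and 0.02 ± 1.23 without SykY317F DZ replicate 2. The difference of zone effects, -4.06 ± 2.22, was -1.13 ± 2.02 without it.

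Fosb, the closest relative of Fos among the members, did not pass the filter and was not tested. It had 0 to 1 UMIs in WT DZ, 13 in WT LZ replicate 2 and 0 to 1 in the other WT LZ libraries. In SykY317F DZ it had 2, 25 and 0 UMIs, and in SykY317F LZ 0, 2 and 0. Of its 45 UMIs in all, 41 came from the 4 libraries numbered 2.

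Jun measured 15.5, 8.20, 7.12 and 6.28 CPM in WT DZ and 30.7, 46.5, 1.92 and 6.93 CPM in WT LZ, with a contrast of 1.28 ± 0.98, and 0.59 ± 1.04 without WT LZ replicate 2. SykY317F DZ measured 10.2, 70.0 and 0 CPM and SykY317F LZ 5.97, 39.5 and 0 CPM. Here too the library numbered 2 was the highest of each group. The DZ genotype contrast of 1.71 ± 1.02 turned to -0.38 ± 1.09 without SykY317F DZ replicate 2.

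Junb, a Jun protein that often opposes Jun in proliferation, measured 132, 129, 113 and 157 CPM in WT DZ and 489, 580, 223 and 152 CPM in WT LZ. The WT zones overlapped through replicate 5 of each zone, and the contrast was 1.44 ± 0.62 (unadjusted p = 0.0381, edgeR adjusted p = 0.551). SykY317F DZ measured 96.6, 526 and 71.9 CPM and SykY317F LZ 137, 356 and 113 CPM. Within LZ the genotype contrast was -0.86 ± 0.71 (95% interval -2.41 to 0.69), and it was -1.55 without SykY317F LZ replicate 2 and -0.53 without WT LZ replicate 2. The SykY317F zone contrast turned from -0.25 ± 0.75 to 1.21 ± 0.57 and the DZ genotype contrast from 0.84 ± 0.65 to -0.63 ± 0.51 without SykY317F DZ replicate 2.

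Jund, the Jun protein that most cells make without stimulation, had its highest levels in other libraries. It measured 273, 148, 151 and 300 CPM in WT DZ, 372, 234, 175 and 166 CPM in WT LZ, 296, 279 and 293 CPM in SykY317F DZ and 325, 237 and 245 CPM in SykY317F LZ. Its zone contrast in WT was 0.12 ± 0.27 (95% interval -0.45 to 0.69). The library numbered 2 led in no group.

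The starts of Fos, Fosb and Jun are set side by side because their levels peaked in the same libraries while their motif matches differed. The stretches are chr12:85473750-85473889 (plus strand), chr7:19310052-19310125 (minus) and chr4:95052223-95052322 (minus).
Fos: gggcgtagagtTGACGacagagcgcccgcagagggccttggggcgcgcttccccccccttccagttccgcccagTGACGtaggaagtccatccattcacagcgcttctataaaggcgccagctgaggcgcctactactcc
Fosb: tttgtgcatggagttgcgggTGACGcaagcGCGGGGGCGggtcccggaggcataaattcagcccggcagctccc
Jun: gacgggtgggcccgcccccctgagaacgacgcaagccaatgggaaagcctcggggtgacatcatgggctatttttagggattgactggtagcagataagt

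RefSeq promoter windows of 300 bases, 250 before and 50 after the start, were found for 7 of the 10 members: Egr2, Nr4a1, Fos, Fosb, Jun, Junb and Jund. On either strand TGACG occurred in 5 of these 7, with 2 matches in Fos, 1 each in Fosb and Junb, 2 in Egr2 and 4 in Nr4a1, against 23.0% of all 27025 genes with a window. Jun and Jund held none. GCGGGGGCG occurred in 2 of the 7 (Fosb and Nr4a1) against 3.31% of genes, and the CArG box in 1 (Egr2) against 1.81%. In Egr2 it lay in 4 of 5 windows but at 2 sites only, since some of these windows overlap and hold the same site. The full CREB element TGACGTCA (2.03% of genes), which contains TGACG, and the AP-1 site TGANTCA (8.97%) occurred in 0 of the 7. Sequence more than 250 bases before the start was not searched, so a count of 0 does not mean that a gene lacks the motif farther upstream. A match is a run of letters and does not show a bound site.

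**Figure D2:**
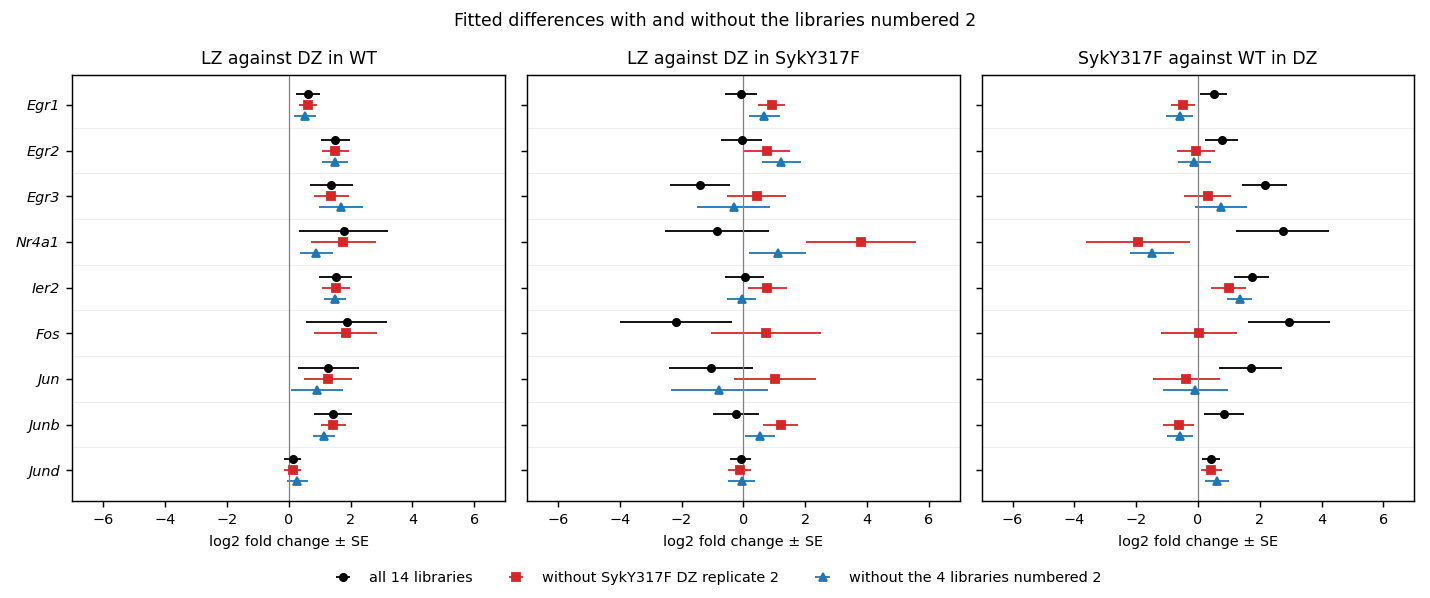
Fitted log2 fold change ± SE of the 9 tested early factors for 3 contrasts, with all 14 libraries (black), without SykY317F DZ replicate 2 (red) and without all 4 libraries numbered 2 (blue, with no point for Fos, which then failed the filter). Points of both SykY317F contrasts cross 0 from black to red, such as Nr4a1 from 2.74 to -1.93 in DZ, and the library left out in red is in neither WT group.

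Several members peaked in the same libraries. The library numbered 2 was the highest of its group for 6 of 10 genes in WT DZ (with Fosb at 1 UMI, as in replicate 4), 6 in WT LZ, 9 in SykY317F DZ and 8 in SykY317F LZ (with Fosb at 2 UMIs). Of the 9 tested members these were 5, 5, 8 and 7, and of all tested genes 18.7%, 20%, 38.5% and 31.9%. In all 4 groups at once, 4 of the 9 (Ier2, Fos, Jun and Nr4a1) were highest in the library numbered 2, against 1.28% of all tested genes. This count was made after the levels had been seen and describes these libraries. The labels do not say what the number marks. Summed over the 10 members, the library numbered 2 held 641 CPM in WT DZ (others 419.9 to 605), 1614 CPM in WT LZ (others 619 to 1246), 2163 CPM in SykY317F DZ (others 509 to 593) and 1462 CPM in SykY317F LZ (others 596 to 666). The gap to the next library was small in WT DZ, and in WT LZ replicate 1 also stood apart from the lower pair.

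Several measures moved with these libraries. SykY317F DZ replicate 2 had the lowest dark zone sum of a group in which all 3 libraries lay below those of WT DZ, as given above. The library numbered 2 was also lowest in that sum in WT DZ (2127 CPM) and SykY317F LZ (920 CPM), but not in WT LZ (912 of 903 to 1359). It had the highest light zone sum in WT LZ (3358 CPM) and SykY317F DZ (2381 CPM), but not in WT DZ (1804 of 1536 to 1879) or SykY317F LZ (3156 of 3156 to 3349). Summed naive and memory B cell markers (7 of 8 in the table) were highest in the library numbered 2 in WT DZ (968 CPM, range 547 to 968) and SykY317F DZ (1625 CPM, range 1097 to 1625), but not in WT LZ (1730 of 871 to 1753) or SykY317F LZ (1914 of 1868 to 1976). T cell markers (7 of 11 in the table) summed to 172, 295, 269 and 254 CPM in the libraries numbered 2, the highest of the group in WT LZ alone, and Icos was at 0 in SykY317F LZ. The macrophage and myeloid list was highest in the library numbered 2 only in SykY317F LZ (124 CPM), whereas plasma cell and GC B cell markers were lowest in the library numbered 2 in all 4 groups, with Sdc1 at 0 in SykY317F LZ. Over all libraries the GC B cell list summed to 6166 to 11450 CPM. Stromal and endothelial markers (3 of 7 in the table) summed to 29.8 to 176 CPM over all libraries, with Vcam1 at 0 in SykY317F LZ. Heat shock genes, which answer stress in a cell, summed to 2724 to 3957 CPM over all libraries. The sum was highest in the library numbered 2 only in SykY317F LZ (3957 CPM). Of 7 tested, 0 were highest in the library numbered 2 in all 4 groups. Hspa8 (group means 1410 to 1760 CPM) and Hsp90ab1 (1030 to 1130 CPM) made up most of the sum. Hspa1b reached at most 6.73 CPM and was not tested, so the sum says little about it. The part of these measures in the levels of the early factors was not tested. In these bulk libraries a larger share of cells with high mRNA and more mRNA per cell cannot be told apart.

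Between the WT zones the marker lists moved too. From WT DZ to WT LZ the naive and memory sum went from 547 to 968 CPM to 871 to 1753 CPM, and the T cell sum from 93.2 to 188 CPM to 166 to 295 CPM, both with overlap. The stromal and endothelial sum went from 29.8 to 58.7 CPM to 67.2 to 84.5 CPM, without overlap. Lower in WT LZ, also without overlap, was the GC B cell sum (6166 to 7976 against 8353 to 11450 CPM). The plasma cell sum was lower there too, without overlap (1281 to 1594 against 2127 to 2789 CPM). The macrophage and myeloid sum overlapped (59.5 to 161 CPM in WT LZ, 91.9 to 397 CPM in WT DZ). Their part in the higher fitted levels of the early factors in WT LZ was not tested. Leaving out all 4 libraries numbered 2, the WT zone contrast of the 8 members then testable stayed above 0, with Egr2 at 1.50 ± 0.42, Ier2 at 1.49 ± 0.36, Junb at 1.14 ± 0.35 and Nr4a1 at 0.89 ± 0.53. There edgeR's test called 0 of these 8 and 0 of all genes. The SykY317F zone contrast, with only replicates 1 and 4 left in each zone, then had 4 of 8 on the higher side. Egr2 was at 1.23 ± 0.64 and Nr4a1 at 1.11 ± 0.93, while Egr3, Ier2, Jun and Jund were on the lower side. These values rest on few counts. LZ replicates 1 and 4 held 8 and 3 UMIs of Egr2, and 2 and 6 of Nr4a1.

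**Figure D3:**
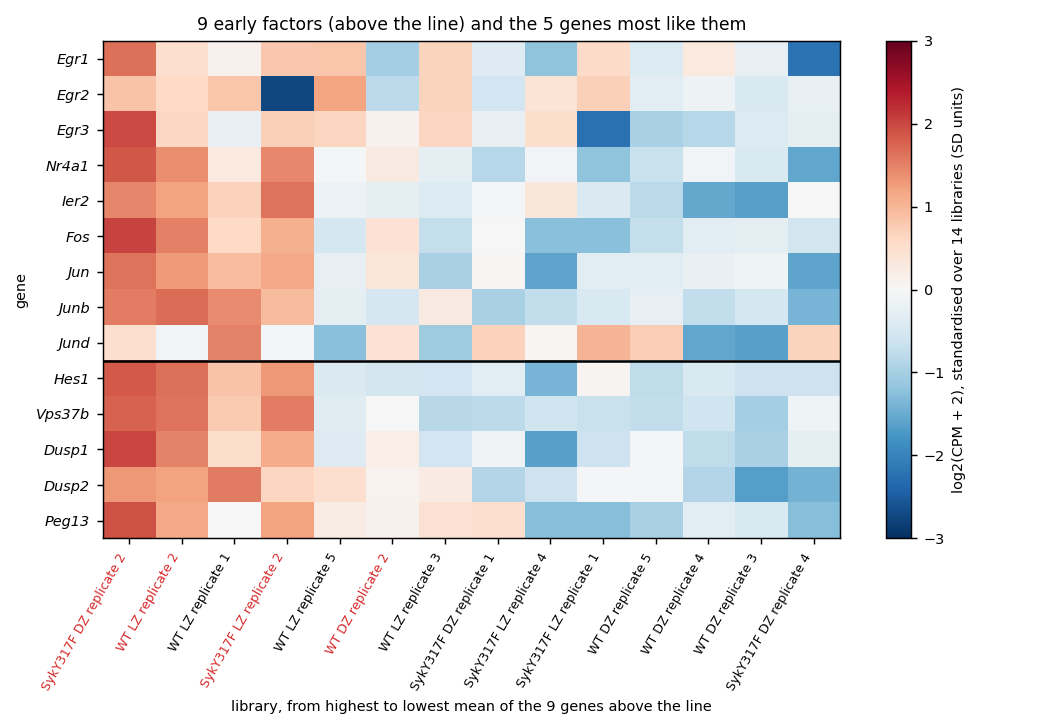
Log2(CPM + 2) of the 9 tested early factors and, below the line, the 5 genes most like them, standardised over 14 libraries and ordered by the mean of the 9. SykY317F DZ replicate 2 and WT LZ replicate 2 stand at the high end and SykY317F DZ replicate 4 at the low end, and all 4 libraries numbered 2 (red labels) are among the top 6.

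Likeness was measured as Pearson's r, over 14 libraries, between a gene's log2 CPM and the mean standardised level of the 9 tested members. The 5 genes with the highest r were Hes1 (r = 0.90, Spearman's rho 0.77), a repressor downstream of Notch, Vps37b (0.90, rho 0.71), a subunit of the ESCRT-I sorting complex, the phosphatase genes Dusp1 (0.88, rho 0.75) and Dusp2 (0.88, rho 0.93), whose products switch off MAP kinases, and the noncoding RNA gene Peg13 (0.84, rho 0.78). These values describe 14 libraries that differ in depth, group and number, and no test was made of them. Without SykY317F DZ replicate 2 and WT LZ replicate 2, the 2 libraries farthest from the median, r was 0.78 for Hes1, 0.78 for Vps37b, 0.72 for Dusp1, 0.90 for Dusp2 and 0.68 for Peg13. Hes1, for example, measured 55.2 CPM in SykY317F DZ replicate 2 and 49.4 CPM in WT LZ replicate 2, against 11.1 and 13.8 CPM in the other SykY317F DZ libraries.

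Around the members, 7 lists of relatives, regulators and targets of the same signals held 136 genes, of which 100 were tested, and 3 of these passed the test in a contrast. All 3 were called in the mean zone effect (1.43% of all genes), and 1 of them also in each of the zone contrasts within WT (0.188%) and SykY317F (0.0375%). The other EGR, NR4A and AP-1 family genes (6 of 15 tested) had 0 called in any contrast by edgeR or DESeq2, and limma voom called Batf between the WT zones. In the mean zone effect 1 had an unadjusted p under 0.05 (14.3% of all genes), and 4 were on the higher side and 2 on the lower (median 0.20 against -0.03 over all genes). Mafg, a small Maf partner of AP-1 proteins, was at 0.68 ± 0.27 there and Batf, an AP-1 factor of lymphocytes, at 0.30 ± 0.23. Nr4a2, a close relative of Nr4a1, failed the filter and reached at most 7.40 CPM, in SykY317F DZ replicate 2.

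Among EGR corepressors and early feedback inhibitors (14 of 21 tested), 1 was called higher in LZ over both genotypes. This was Dusp10, a phosphatase of JNK and p38, at 1.13 ± 0.26 (edgeR adjusted p = 0.0304). In WT it measured 29.0 ± 10.5 CPM in DZ and 49.1 ± 14.0 CPM in LZ (SD, n = 4 each), and in SykY317F 30.7 ± 12.8 CPM in DZ and 86.3 ± 1.58 CPM in LZ (SD, n = 3 each). That call was kept without WT DZ replicate 2 or 5, WT LZ replicate 5, replicate 1 of SykY317F DZ or replicate 4 of SykY317F LZ, and lost in the other 9 of 14 fits that left out 1 library. It was also lost without all libraries numbered 2 (1.11, edgeR adjusted p = 0.127), with library size scaling alone (1.05, 0.0596) and with read counts (0.87, 0.184). Nab2, a corepressor that binds EGR proteins, was at 0.85 ± 0.28 (edgeR adjusted p = 0.141; called by limma voom, adjusted p = 0.0234), and the list's median was 0.32 with 9 of 14 on the higher side. In this list Dusp1 was highest in the library numbered 2 in all 4 groups, at 28.5, 74.1, 108 and 56.5 CPM, and its DZ genotype contrast was 1.46 ± 0.67 (edgeR adjusted p = 1).

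Among other early response genes (17 of 24 tested), 2 were called and both fell in LZ over both genotypes. Gadd45b, a stress response gene that acts on MAP kinase signalling, was at -1.26 ± 0.16 (edgeR adjusted p = 0.000205). In WT it measured 734 ± 107 CPM in DZ and 366 ± 40.5 CPM in LZ, and in SykY317F 523 ± 89.8 CPM in DZ and 181 ± 15.7 CPM in LZ (SD), so both genotypes had lower levels in LZ. It was also called within WT (-1.01 ± 0.20, edgeR adjusted p = 0.0340) and within SykY317F (-1.52 ± 0.24, edgeR adjusted p = 0.0154), and both of these calls were lost without all libraries numbered 2, while the call over both genotypes held there (-1.30 ± 0.19, edgeR adjusted p = 0.0137). The WT call was kept in 5 of 14 fits without 1 library (replicate 4 of WT DZ, 3 of WT LZ, 2 or 4 of SykY317F DZ, and 4 of SykY317F LZ) and lost in 9. The SykY317F call was lost in 5, without SykY317F DZ replicate 1 or 4 or any SykY317F LZ library. With only the compared groups fitted, both calls were lost (edgeR adjusted p = 0.0924 in WT and 0.0675 in SykY317F), and the WT call also with read counts (0.182) and without the libraries under 400000 UMIs (0.0995). Pim1, a survival kinase, was at -1.12 ± 0.23 (edgeR adjusted p = 0.0178), and it lost that call without SykY317F DZ replicate 1 (-1.02, edgeR adjusted p = 0.0643), without all libraries numbered 2 (-1.17, 0.103) and with read counts (-1.19, 0.0643). DESeq2's Wald test also called Klf2 and Pim1 between the WT zones and Gadd45b between genotypes in LZ (-0.98, adjusted p = 0.00878). Limma voom also called Pim1 and Myc between the WT zones, where edgeR put Klf2 at 1.29 ± 0.36 and Myc at 0.98 ± 0.40, neither called. For the mean zone effect the list as a whole leaned the other way, with 12 of 17 on the higher side and a median of 0.40, Klf2 at 0.79 ± 0.28 among them. Between genotypes in DZ, Klf2 was at 1.65 ± 0.38 and Klf4 at 3.14 ± 0.90 (edgeR adjusted p = 0.636 and 0.766). Klf2, which holds lymphocytes in a resting state, is also on the list of naive and memory markers. In all, the 7 lists share 5 genes with the marker lists. Besides Klf2 these are Nfkbia and Bcl2a1b (both light zone), Irf4 (plasma cells) and Mef2b (GC B cells). Marker sums that hold such genes are not independent of them.

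The regulators upstream stood near the middle of all genes. Factors at immediate early promoters (14 of 20 tested) had a median of -0.17 for the mean zone effect, the RAS, ERK, JNK and p38 cascade (24 of 26) 0.09, the calcium and NFAT arm (18 of 18) 0.03 and heat shock genes (7 of 12) 0.01, and 0 of their genes were called in any contrast by edgeR's test. For the mean zone effect 1, 3, 5 and 0 of their genes had an unadjusted p under 0.05 (14.3% of all genes), and DESeq2's Wald test called 2 of the calcium list, Blnk and Calm2, as did limma voom, which also called Crtc2. Over the alternatives other than leaving out 1 library, these 2 tools among them, 13 to 235 of all genes were called in this contrast. The calls of the 2 tools are therefore not read as a result about these lists. Crtc2, a CREB coactivator, was at 0.56 ± 0.18, Braf, a kinase upstream of ERK, at -1.23 ± 0.49, and Calm2, a calmodulin gene, at -0.81 ± 0.22 (edgeR adjusted p = 0.141, 0.240 and 0.0733).

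**Figure D4:**
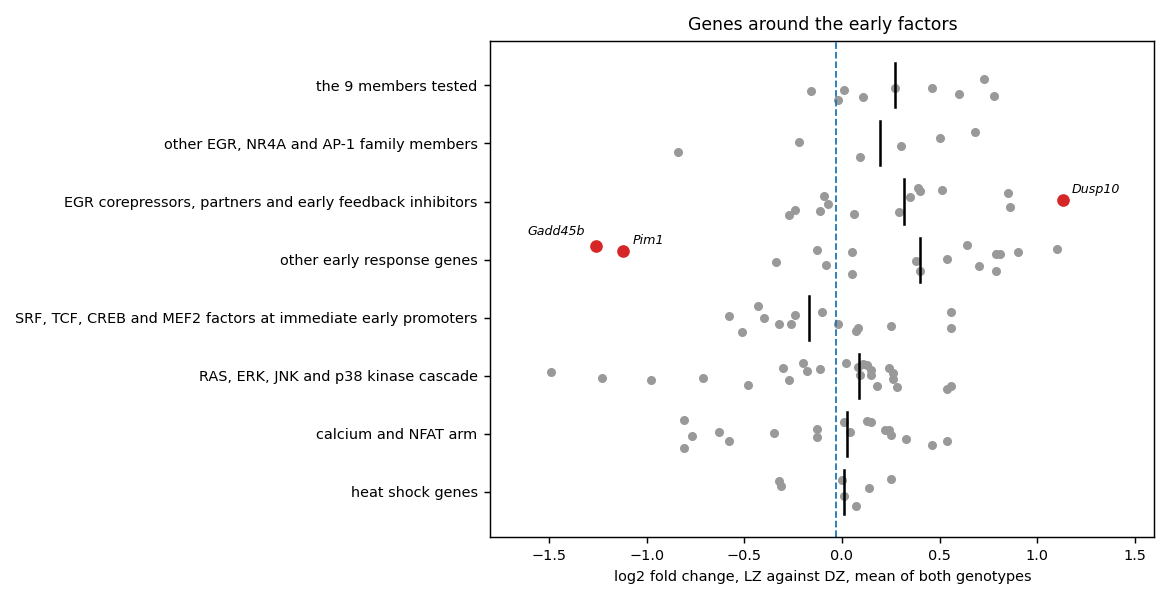
Log2 fold change of LZ against DZ, averaged over both genotypes, for the 9 tested early factors and 7 gene lists, 1 point per gene, with the list's median as a black bar and the median of all genes as a dashed line. Red points passed edgeR's test (Dusp10 at 1.13, Pim1 at -1.12 and Gadd45b at -1.26), and the early factors, at a median of 0.27, hold none.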

How the data were processed

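GC B cells of either zone were sorted, mRNA was caught on oligo(dT) beads, and a variation of MARS-seq, which tags transcript ends with UMIs, made the libraries, per the labels' protocols. For mm10, the tools named without role or order in the submitters' processing notes are STAR 2.4.2a, HTSeq, cutadapt, DESeq and DESeq2. The deposited UMI counts are whole numbers for 9969 gene symbols in 14 libraries, not normalized, and a second deposited table holds read counts for 11914 rows. Beside the counts the authors deposited a normalised signal (UMI counts divided by 1 factor per library), log2 values and fold changes, and p-values, of which the fold changes and adjusted p-values of the members are used here.

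UMI counts were filtered with filterByExpr (10 counts, total 15), which left 7999 genes with 99.3% of UMIs, scaled by TMM and fitted over 4 groups in edgeR 4.0.16 (R 4.3.3, robust quasi-likelihood, common biological coefficient of variation 32.3%). Benjamini-Hochberg adjustment ran over the 7999 genes in each contrast, and the threshold was 0.05. The steps were tested on simulated data. Alternatives were DESeq2 1.42.0 size factors and its Wald test, library size scaling, no filter, a stricter filter (20 counts in 3 libraries), only the compared groups, limma 3.58.1 voom with quality weights, read counts, a replicate block, leaving out each library, and leaving out 4 libraries under 400000 UMIs. Leaving out all libraries numbered 2 was added after seeing the data. The members and gene lists were chosen with earlier results of these data known. Named list genes were those past the threshold in any contrast, otherwise up to 3 with the smallest p for the mean zone effect and up to 2 in the genotype contrasts, and likeness used the 5 highest correlations. Nab2, Nr4a2, Myc and the zone values of Klf2 fall outside that rule and were named after their values were seen. Log2 CPM used a prior count of 2. Coordinates are GRCm38, the assembly of mm10.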

Additional observations from a re-analysis of the deposited data

Results flagged for a closer look

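In groups of 4 libraries, each of the 10 genes was checked for a library far from the other 3 (here 20 groups of values, 3 found). For independent, normally distributed values this happens in about 1 of 20 groups. Low counts, and genes measured in the same libraries, do not meet that condition, so the 3 found cannot be judged against that rate. Nr4a1 in WT LZ replicate 2, at 313.4 CPM, stood far above the next library at 64.7 CPM. Fosb in WT LZ replicate 2, at 12.85 CPM (13 UMIs), stood above the next at 0.577 CPM. Egr3 in WT LZ replicate 1, at 8.776 CPM (8 UMIs), stood below the other 3, which began at 20.8 CPM. Groups of 3 libraries were not checked in this way.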

How the results depend on the processing

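The number of members called was 0 in each contrast under each alternative, with 1 exception. Limma voom with sample quality weights called Egr2 in the WT zone contrast (1.45, adjusted p = 0.0335), among 295 genes called there. Over its alternatives the adjusted p of Egr2 there ran from 0.0335 to 1, the latter with read counts. Calls over all genes moved more: leaving out 1 library gave 1 to 26 in the WT zone contrast (15 with all), 0 to 10 in the SykY317F zone contrast (3) and 42 to 152 for the mean zone effect (114), and the other alternatives gave 0 to 295, 0 to 42 and 13 to 235. For genotype in DZ, genotype in LZ and the difference of zone effects (0 with all) the highest counts were 4, 54 and 0. The causes were not tested.

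Of 476 fold changes of members refitted without 1 library, 21 changed sign, and of 339 under other alternatives 22 did. In the WT zone contrast these were confined to Jund: -0.16 to 0.34 leaving out 1 library, -0.05 with the replicate block and -0.20 with read counts. Leaving out 1 library, the SykY317F zone contrast ran from -0.45 to 0.91 for Egr1, -0.84 to 0.77 for Egr2, -2.21 to 0.43 for Egr3, -0.79 to 0.77 for Ier2, -8.43 to 0.72 for Fos, -2.90 to 1.02 for Jun, -0.93 to 1.21 for Junb and -3.65 to 3.80 for Nr4a1. Each upper value left out SykY317F DZ replicate 2, and the -8.43 of Fos, with 0 UMIs in both remaining LZ libraries, depends on the prior count and is no bound. The DZ genotype contrast ran from -0.49 to 0.86 for Egr1, -0.06 to 1.12 for Egr2, -0.38 to 2.15 for Jun, -0.63 to 1.22 for Junb and -1.93 to 3.29 for Nr4a1, each lower value without SykY317F DZ replicate 2.

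Without all libraries numbered 2 the SykY317F zone contrast changed sign for Egr1 (0.68), Egr2 (1.23), Ier2 (-0.05), Junb (0.53) and Nr4a1 (1.11), and the DZ genotype contrast for Egr1 (-0.60), Egr2 (-0.12), Jun (-0.09), Junb (-0.59) and Nr4a1 (-1.49). With limma voom the SykY317F zone contrast changed sign for Egr1 (0.38), Egr2 (0.0068), Junb (0.37) and Nr4a1 (0.06), and the DZ genotype contrast for Egr1 (-0.0064). Read counts gave 0.17 for Egr1 and 0.26 for Egr2 in the SykY317F zone contrast, and scaling by library size alone -0.12 for Ier2.

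The rule for treating the replicate numbers as pairs, a correlation over 0.1 in every pair, was not met: deviations of same-numbered libraries from their group means correlated at -0.56 to 0.31, over 0.1 in 8 of 14 pairs, and 2 libraries of 14 correlated best with their own number. With the replicate block the calls over all genes were 14 in WT and 94 for the mean zone effect, 0 members were called, Dusp10 (1.10, edgeR adjusted p = 0.0552) and Gadd45b within WT (-1.02, 0.0649) and within SykY317F (-1.52, 0.0524) were no longer called, and the sign also changed for Egr1 (0.07) and Junb (0.0038) in the SykY317F zone contrast. Of the members, Ier2 came closest to a call with the block, at 1.43 ± 0.31 in the WT zone contrast. Its edgeR adjusted p there was 0.0629, against 0.391 without the block, while that of Egr2 rose from 0.254 to 0.552. For the difference of zone effects the block gave edgeR unadjusted p = 0.00897 for Ier2, 0.0126 for Egr3 and 0.0273 for Fos (adjusted p = 0.999 each). Contrasts that lost a group without the libraries under 400000 UMIs were not fitted. Depth limits the SykY317F LZ group most, where 3 UMIs equal 8.95 to 18.8 CPM.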
